A study of Mus musculus with 99 samples.

Results

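The hippocampus of mice that responded to ketamine was compared with that of mice that did not respond. All 6 libraries came from ventral hippocampus of mice classed as susceptible to chronic social defeat, the repeated exposure of a mouse to a larger aggressor, and all were from ketamine-treated mice. The samples were taken by their titles, 3 libraries of responders and 3 of non-responders among the 99 libraries of the series, and each library held pooled tissue of 2 mice. They are called responder 1 to 3 and non-responder 1 to 3, numbered in the order of deposit, so a shared number does not pair them. The 18 other hippocampal libraries, fitted together with them, came from saline-treated mice (control, resilient or susceptible) and from susceptible imipramine-treated mice, again responders or non-responders. Strain, age, sex, dose and the interval between drug and dissection are not given in the sources used here, nor is the behavioural test that defined a responder.

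Ketamine blocks the NMDA receptor, a glutamate-gated ion channel, and a single low dose has a rapid antidepressant effect in a share of patients. In rodents this effect has been linked to a burst of glutamate release, to AMPA receptors, to BDNF and to translation controlled by mTOR and eEF2 kinase. The ventral hippocampus is the part of the hippocampus most tied to mood and stress, and it is bordered by thalamus, amygdala and the choroid plexus of the ventricle. A dissected piece can carry tissue of those neighbours, so their marker genes were read beside every result.

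Total counts were 34987978, 32058160 and 48838788 in responders 1 to 3 and 32558686, 29443018 and 25244975 in non-responders 1 to 3. Markers of the labelled tissue were present: Prox1, the transcription factor of dentate granule cells, lay at 136 to 178 CPM (read counts divided by a common library total, scaled by the trimmed mean of M-values, TMM) and Neurod6, a transcription factor of pyramidal neurons, at 105 to 336 CPM. Responder 3, the deepest of the 6 libraries, stood apart by its counts: the chi-square per degree of freedom between its counts and those of the other 5 libraries was at least 46.3, and between pairs without it the value ran from 6.01 (responder 2 with non-responder 2) to 23.3 (responders 1 and 2). This measure grows with depth, and Pearson's r of log2 CPM across genes overlapped, at 0.984 to 0.990 for pairs with responder 3 and 0.988 to 0.994 for the others (genes are not independent replicates). None of the 15 pairs of libraries was identical. Values for many genes and lists are therefore given with and without it. The sample numbers in the titles fall into 5 consecutive series, which the labels do not explain, and 1 of them held a library of both groups, responder 1 and non-responder 1.

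No gene separated responders from non-responders after adjustment for the number of genes tested. Of 17758 genes tested, 0 (0%) had an adjusted p below 0.05 in edgeR's quasi-likelihood test, and the smallest adjusted p was 0.699. DESeq2 also called 0 genes. At an unadjusted p below 0.05, 783 genes (4.41%) were higher in responders and 450 (2.53%) lower, 1233 in all in edgeR and 1248 in DESeq2. In 859 genes (4.84%) every responder library lay above every non-responder library, and in 866 (4.88%) every responder library lay below. These shares are the background wherever a gene below is said to have groups that did not overlap. The log2 fold change was above 0 in 49.2% of genes and its median over all genes was -0.0026, which is the background for each gene list below.

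How many genes had an unadjusted p below 0.05 moved with the libraries used. It was 561, with 361 higher and 200 lower, when only the 6 libraries compared were in the fit. The split into 783 higher and 450 lower was 631 and 630 with the series of sample numbers as a covariate, and 1190 and 1206 without responder 1. The total was 527 without responder 3 and 2396 without responder 1, as the bar chart of these counts by setting shows. Without responder 1, Pcp4l1 was called, with a log2 fold change of 0.92 and an adjusted p of 0.0222 in edgeR. Pcp4l1, which encodes a small protein related to the calmodulin regulator Pcp4, measured 56.0, 78.2 and 126 CPM in responders and 52.9, 57.5 and 52.3 CPM in non-responders. Responder 1 lay within the range of the non-responders and responder 3 far above it, and without responder 3 the log2 fold change went from 0.68 to 0.31. Susceptible saline libraries lay at 39.0 to 42.0 CPM.

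**Figure D1:**
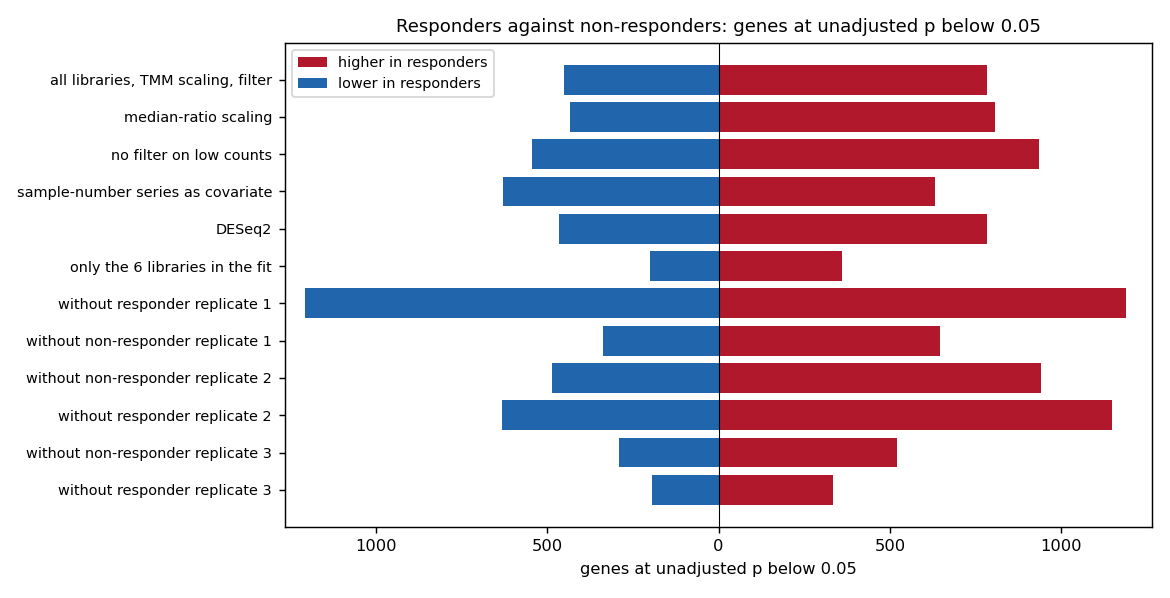
Genes with an unadjusted p below 0.05, as counts, in ketamine responders against non-responders (horizontal axis), higher in responders to the right and lower to the left, for all libraries and for each alternative setting (vertical axis). The counts range from 527 without responder 3 to 2396 without responder 1.

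Among the 8 genes with the smallest p that were higher in responders, Mob3a, a Mob family adaptor of kinases, varied least with the libraries used. Its levels were 3.04, 3.33 and 3.18 CPM in responders and 2.22, 2.16 and 2.15 CPM in non-responders. The groups did not overlap and each was tight, which choosing by p in this same comparison favours. The log2 fold change was 0.55 with a standard error (SE) of 0.121 and an adjusted p of 0.699, and it stayed between 0.50 and 0.58 in every alternative run. The 3 saline libraries, at 2.41, 2.42 and 2.50 CPM, lay between the ketamine groups, and the log2 fold change in imipramine responders against non-responders was 0.02 (SE 0.114).

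Pcbd1, which recycles the tetrahydrobiopterin cofactor of monoamine synthesis, measured 3.53, 3.87 and 5.52 CPM in responders and 2.46, 2.73 and 3.08 CPM in non-responders, a log2 fold change of 0.66 (SE 0.176), or 0.43 without responder 3, and its groups did not overlap. Several others of this set were highest in responder 3. Klhdc8a, a kelch domain gene, stood at 5.60, 4.88 and 16.9 CPM in responders and at 3.92, 4.15 and 3.52 CPM in non-responders, and its log2 fold change of 1.25 (SE 0.300) was 0.44 without responder 3. Plch1, a phospholipase C, went from 0.60 to 0.28, Ptprm, a receptor tyrosine phosphatase, from 0.50 to 0.20, and Acta2, smooth muscle actin, from 0.60 to 0.38 on the log2 scale when responder 3 was left out.

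The 8 genes with the smallest p that were lower in responders had smaller differences, from -0.24 to -0.41 on the log2 scale. In each of them every responder library lay below every non-responder library. Choosing genes by p in this same comparison favours such groups, so their separation adds no support. Hcfc2, a host cell factor, measured 41.4, 43.7 and 36.2 CPM in responders and 49.2, 45.4 and 56.2 CPM in non-responders, a log2 fold change of -0.32 (SE 0.081). Ric1, part of a Golgi exchange factor for Rab6, measured 63.2, 62.0 and 60.8 CPM in responders and 74.7, 70.4 and 74.5 CPM in non-responders. Its log2 fold change was -0.24 (SE 0.070) and remained at -0.22 without responder 3. Dnajc1, a chaperone cofactor of the endoplasmic reticulum membrane, lay at 33.6, 36.6 and 28.6 CPM in responders and 42.1, 38.8 and 41.6 CPM in non-responders. Rasl10a, a Ras-like GTPase, stood at 58.4, 68.7 and 56.5 CPM against 80.8, 72.8 and 90.0 CPM, with saline libraries at 52.0 to 57.8 CPM. All non-responders and responders 1 and 2 were above the saline range, the non-responders further. Doc2b, a calcium sensor of synaptic vesicle fusion, measured 174, 168 and 142 CPM in responders and 201, 206 and 222 CPM in non-responders, a log2 fold change of -0.38 (SE 0.115). Slc35f3 (-0.30), Pop1 (-0.32) and Ccdc149 (-0.30) completed the set.

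With all 6 libraries, the largest median difference of the 37 lists was in markers of thalamus and hypothalamus, with the highest levels in responder 3. Of 17 listed genes, 14 were tested, 13 of them had a log2 fold change above 0, 12 were higher at an unadjusted p below 0.05 and 0 were called. The 12 became 5 with the series of sample numbers as a covariate and 3 with only the 6 libraries in the fit. In 5 of the 14 the groups did not overlap. The median log2 fold change was 1.18, and 0.41 without responder 3, when 0 members were higher and 1 was lower at an unadjusted p below 0.05. The mean level of the list was 3.08, 3.75 and 5.18 log2 CPM in responders 1 to 3 and 3.38, 3.02 and 3.14 in non-responders. Responder 1 lay inside the range of the non-responders and below non-responder 1 of the same series of sample numbers.

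Prkcd, a protein kinase C isoform abundant in thalamic relay neurons, measured 79.0, 145 and 315 CPM in responders and 87.7, 78.2 and 76.4 CPM in non-responders. Tcf7l2, a transcription factor of thalamic neurons, measured 11.8, 24.3 and 101 CPM in responders and 19.5, 16.4 and 16.0 CPM in non-responders. In both genes responder 1 was among or below the non-responders and responder 3 was highest, and without responder 3 the log2 fold change of Tcf7l2 went from 1.41 to 0.06 and that of Prkcd from 1.15 to 0.47. Tnnt1, slow skeletal troponin T, which is also expressed in thalamus, measured 10.8, 14.1 and 24.7 CPM in responders and 9.96, 6.51 and 9.28 CPM in non-responders. Here the groups did not overlap, and the log2 fold change was 0.95 (SE 0.404), or 0.54 without responder 3. Synpo2, an actin-binding protein, Rgs16, a regulator of G-protein signalling, and Lef1, a Wnt-pathway transcription factor, were also higher in every responder, with log2 fold changes of 1.47, 1.24 and 1.17, which became 0.60, 0.56 and 0.42 without responder 3. The single member below 0 was Agrp, a hypothalamic feeding peptide, at -0.27.

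All 6 ketamine libraries carried more of these markers than the susceptible saline libraries, and 1 control library did so too. The list mean was 1.44 to 1.54 log2 CPM in the 3 susceptible saline libraries, 1.28 to 1.61 in the 7 imipramine libraries, 1.40 to 1.55 in the 4 resilient libraries, and 1.42, 1.44, 1.64 and 3.24 in the 4 controls. Against susceptible saline, responders had 119 called genes (0.67%), 110 higher and 9 lower, among them 13 of the 14 markers. Meningeal and mural cell markers were also higher than in susceptible saline. Their list means were 3.34 to 3.88 log2 CPM in responders, 3.23 to 3.46 in non-responders and 2.83 to 2.91 in susceptible saline. They were 3.00 to 3.04 in controls and 2.83 to 3.30 in resilient libraries, which reached into the non-responder range. In imipramine responders and non-responders they were 2.83 to 3.22 and 2.68 to 3.12. Of these 16 markers, 3 were called in responders against saline, Dcn, Col1a2 and Aldh1a2, and 0 in non-responders, and the medians were 0.74 and 0.60. Non-responders had 1 called gene (0.00563%), Tnnt1, with a log2 fold change of 3.22 and an adjusted p of 0.0318 in edgeR, beside 4.17 and 0.000346 in responders. Vipr2, the VIP and PACAP receptor, chosen here after its values were seen, measured 5.49, 6.07 and 10.3 CPM in responders, 4.37, 3.07 and 3.28 CPM in non-responders and 0.429 to 0.823 CPM in saline. The count for responders was 13 without responder 3, 550 without responder 1, 317 without responder 2, and 3, 9 and 4 without saline replicates 1, 2 and 3. Of the 14 thalamus and hypothalamus markers, 3 were called without responder 3, and 2, 3 and 2 without saline replicates 1, 2 and 3. It was 13 of them without responder 1 or 2. For non-responders the count of called genes was 0 without any 1 of the saline libraries and 5 without non-responder 3. Without non-responder 1 the 1 called gene was Xbp1. Both ketamine groups are set against the same saline libraries, so the 2 counts are not independent, and in bulk tissue more cells of a type and more RNA per cell cannot be told apart.

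**Figure D2:**
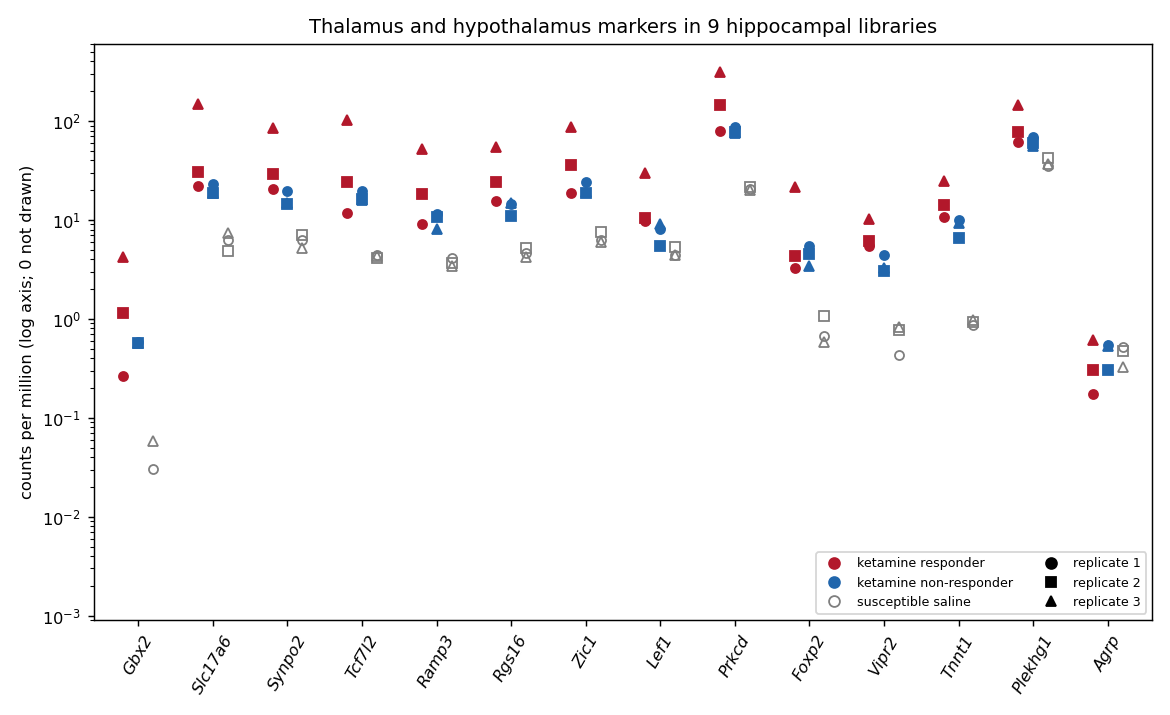
CPM on a log axis (vertical) of the 14 tested thalamus and hypothalamus markers (horizontal, ordered by log2 fold change) in 3 responder, 3 non-responder and 3 susceptible saline libraries, with marker shapes for replicates. Responder 3 is highest in all 14 genes, and for Tnnt1 and Vipr2 all 6 ketamine libraries lie above all saline libraries.

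Markers of other neighbouring tissue also followed single libraries. Among 18 striatal projection neuron markers, 14 were above 0 with a median log2 fold change of 0.33, which became -0.06 without responder 3. Drd2, the D2 dopamine receptor, had a log2 fold change of 0.83 (SE 0.374), which became 0.05 without responder 3. Syndig1l, a synapse differentiation gene of striatum, had groups that did not overlap, at 7.03, 7.75 and 15.0 CPM in responders against 6.59, 5.40 and 6.24 CPM, and its log2 fold change of 0.72 (SE 0.209) was 0.28 without responder 3.

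Choroid plexus markers were raised in responders 1 and 2 and in non-responder 2, with list means of 2.18, 4.34 and 4.16 log2 CPM, beside -0.69 to -0.13 in the other ketamine libraries and -0.45 to -0.20 in susceptible saline. Resilient saline libraries reached 3.16. Ttr, the transthyretin carrier that choroid plexus secretes into the cerebrospinal fluid, measured 349, 2341 and 23.8 CPM in responders and 8.60, 1630 and 8.67 CPM in non-responders, against 5.11 to 8.60 CPM in saline. Responder 2 and non-responder 2 were highest and responder 1 was intermediate. Its log2 fold change was 0.72 (SE 1.85), -1.56 without responder 2 and 6.71 without non-responder 2. The median of the 16 markers, 0.37 with 15 above 0, became -1.51 and 4.11 in the same settings, so no direction can be given. Kcnj13, an inward rectifier of the choroid plexus, followed the same libraries, at 0.817, 5.34 and 0.0585 CPM in responders and 0.0304, 3.68 and 0 CPM in non-responders.

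**Figure D3:**
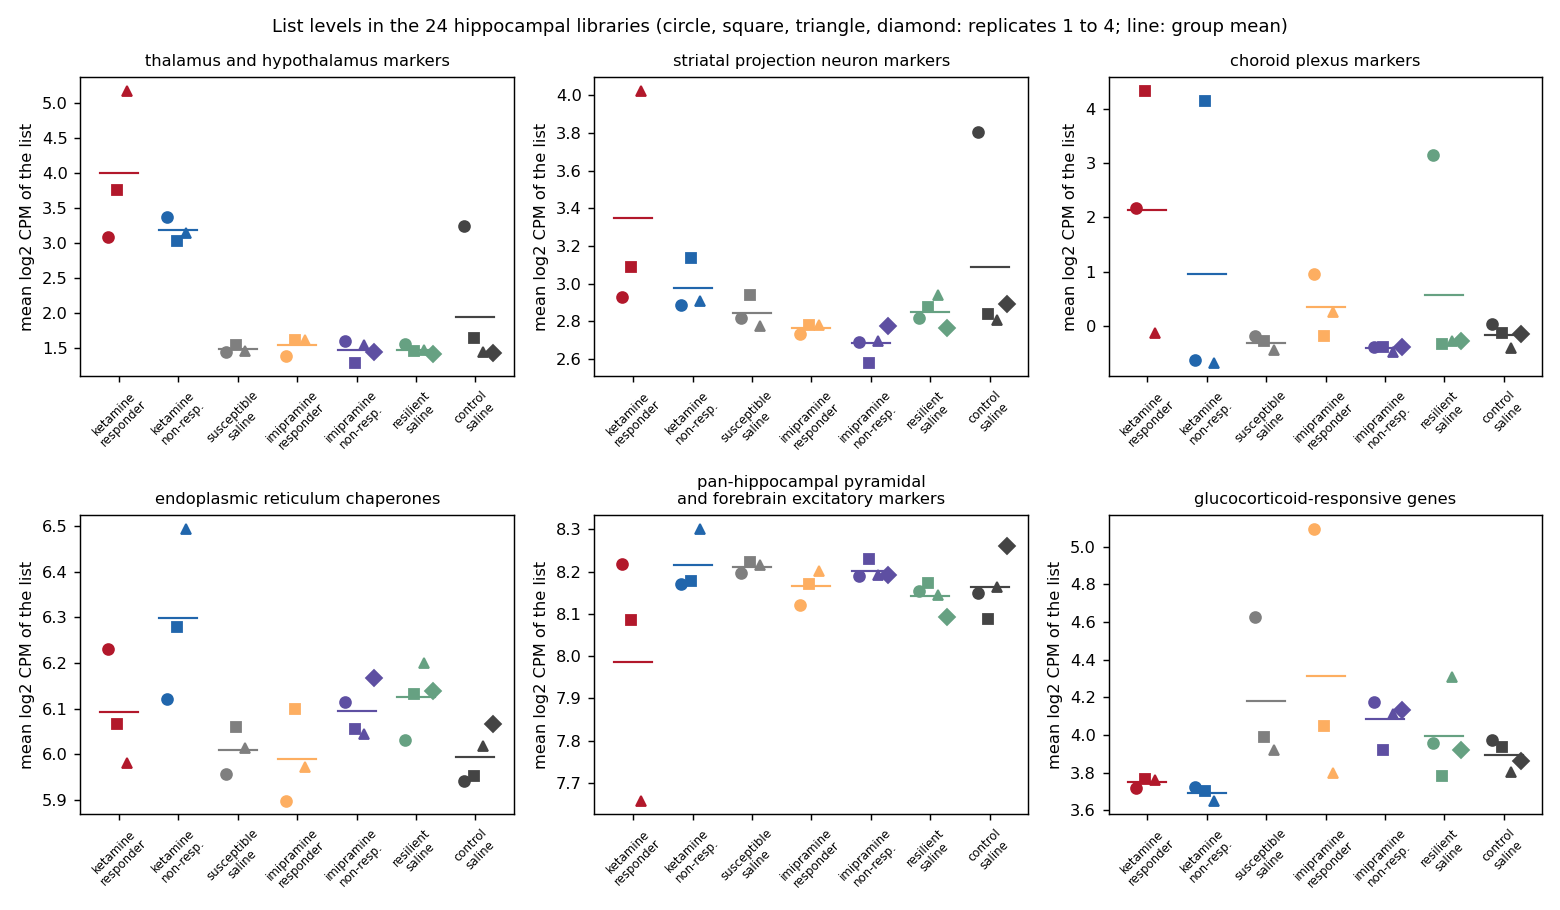
Mean log2 CPM of 6 gene lists (vertical axes) in each of the 24 hippocampal libraries, by group (horizontal axes), with lines at group means. Responder 3 is highest for thalamus and hypothalamus markers at 5.18 and lowest for the pan-hippocampal markers at 7.66, and responder 2 and non-responder 2 are highest for choroid plexus markers at 4.34 and 4.16.

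Markers of the hippocampal neurons themselves tended to lie lower in responders. Of 9 pan-hippocampal pyramidal and forebrain excitatory markers, 9 were below 0, with a median log2 fold change of -0.17, and 3 were lower at an unadjusted p below 0.05. That count was 0 without responder 3, without non-responder 3, with the series of sample numbers as a covariate or with only the 6 libraries in the fit, and 7 without responder 1. Their mean was 8.22, 8.09 and 7.66 log2 CPM in responders and 8.17, 8.18 and 8.30 in non-responders, so responder 3 was lowest and responder 1 lay among the non-responders. Neurod6, chosen here after its values were seen, measured 279, 252 and 105 CPM in responders and 246, 252 and 336 CPM in non-responders. Without responder 3 the list's median was -0.07 and the log2 fold change of Neurod6 went from -0.39 to -0.06. Fibcd1, a CA1 marker, showed the same arrangement, at 177, 185 and 91.7 CPM in responders and 181, 185 and 202 CPM in non-responders, and its log2 fold change went from -0.33 to -0.06. The medians of the CA1 and of the CA3 and CA2 markers, -0.19 and -0.15, became -0.06 and 0.12 without responder 3.

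Dentate gyrus granule cell markers kept their median of -0.14 without responder 3, and it was -0.03 with the series of sample numbers as a covariate. Of 11 markers, 9 were below 0 and 1 was lower at an unadjusted p below 0.05. That count was 0 with that covariate, 2 without responder 2 and 3 with only the 6 libraries in the fit. In 4 markers, and in 4.88% of all genes, every responder lay below every non-responder. The list mean was 6.30 to 6.36 log2 CPM in responders, 6.47 to 6.51 in non-responders and 6.40 to 6.44 in susceptible saline. Resilient libraries, at 6.09 to 6.60, took in both ketamine groups. Controls lay at 6.19 to 6.43, and imipramine responders and non-responders at 6.33 to 6.62 and 6.32 to 6.73. Trpc6, a cation channel enriched in granule cells, measured 27.4, 25.1 and 23.9 CPM in responders and 32.6, 31.1 and 34.7 CPM in non-responders, with saline at 22.9 to 25.6 CPM. Its log2 fold change was -0.37 (SE 0.125), and all non-responders and responder 1 lay above the saline range. Prox1 measured 159, 136 and 157 CPM in responders and 178, 163 and 168 CPM in non-responders, and Lct, a lactase gene that marks granule cells in mouse, 86.9, 103 and 68.6 CPM against 109, 118 and 103 CPM, with a log2 fold change of -0.36 (SE 0.204), or -0.21 without responder 3. C1ql2, a synaptic organiser of mossy fibres, was the fourth, with a log2 fold change of -0.18.

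Chaperones of the endoplasmic reticulum formed the list with the most uniform direction among the process lists. These proteins fold and modify secreted and membrane proteins, and when unfolded proteins build up the sensors ATF6 and IRE1, the latter through splicing of Xbp1, switch their genes on together. The control element described for them, the endoplasmic reticulum stress element, joins CCAAT and CCACG with 9 bases between. This motif was searched on both strands of the 32851 RefSeq promoters of mouse build GRCm38.p6, each running from 250 bases before to 50 after a start site. It occurred in 7 of the 15 listed chaperone genes with a promoter in that set and in 0.137% of all genes. A match is a description of these letters only. The promoters of the 3 members with the smallest p among those with a match are shown, 5′ to 3′ on the gene's strand, with both parts of the motif in capitals: Calr (chr8:84846882-84847181, minus strand, motif on the opposite strand as CGTGG and ATTGG), Hspa5 (chr2:34771840-34772139, plus strand) and Pdia6 (chr12:17266339-17266638, plus strand).
Calr: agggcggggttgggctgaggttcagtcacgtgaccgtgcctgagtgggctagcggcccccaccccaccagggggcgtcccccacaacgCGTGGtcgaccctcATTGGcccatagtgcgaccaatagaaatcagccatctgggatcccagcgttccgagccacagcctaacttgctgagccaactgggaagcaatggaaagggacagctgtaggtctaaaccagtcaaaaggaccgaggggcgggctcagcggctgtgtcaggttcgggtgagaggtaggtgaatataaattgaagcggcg
Hspa5: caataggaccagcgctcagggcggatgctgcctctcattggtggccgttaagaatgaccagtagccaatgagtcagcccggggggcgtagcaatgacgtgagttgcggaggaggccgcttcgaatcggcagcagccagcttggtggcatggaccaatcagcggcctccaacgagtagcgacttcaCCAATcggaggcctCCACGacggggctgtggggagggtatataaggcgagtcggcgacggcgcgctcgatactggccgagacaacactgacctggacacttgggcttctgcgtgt
Pdia6: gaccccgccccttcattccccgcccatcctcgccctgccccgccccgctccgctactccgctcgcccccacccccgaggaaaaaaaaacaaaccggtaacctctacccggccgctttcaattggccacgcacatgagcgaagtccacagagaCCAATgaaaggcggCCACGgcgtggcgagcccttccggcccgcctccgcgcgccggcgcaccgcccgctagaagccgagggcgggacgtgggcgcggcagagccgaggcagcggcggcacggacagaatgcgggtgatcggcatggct

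All 17 chaperone genes had a log2 fold change below 0 in responders against non-responders, with a median of -0.21. At an unadjusted p below 0.05, 9 were lower, 0 were called, and in 1, P4hb, every responder lay below every non-responder. With only the 6 libraries in the fit, 1 was lower at that level. The mean level of the list was 6.23, 6.07 and 5.98 log2 CPM in responders and 6.12, 6.28 and 6.49 in non-responders. Responder 1 lay between non-responders 1 and 2, so the groups overlapped, and it was above non-responder 1 of the same series of sample numbers. Without non-responder 3 the median was -0.11 and 0 members had an unadjusted p below 0.05, and without responder 3 it was -0.16 and 1 did.

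Hspa5, the chaperone BiP, measured 252, 192 and 174 CPM in responders and 212, 260 and 339 CPM in non-responders. Non-responder 3 was highest and responder 3 lowest, and the log2 fold change of -0.39 (SE 0.144) was -0.20 without non-responder 3. Xbp1, the transcription factor of the unfolded protein response, measured 57.7, 52.1 and 51.4 CPM in responders and 54.7, 62.0 and 81.5 CPM in non-responders. For Xbp1 the log2 fold change of -0.30 (SE 0.094) was -0.12 without non-responder 3. Calr, calreticulin, went from -0.23 to -0.19 and Hyou1, an HSP70-like chaperone induced by hypoxia, from -0.21 to -0.15 in that setting. Sdf2l1, like Hspa5 and P4hb chosen after its values were seen, had the lowest value at -0.43 (SE 0.193). Herpud1, a component of protein degradation at the endoplasmic reticulum, lay at -0.0085.

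Chaperone levels were also set against saline. In non-responders 17 of 17 members had a log2 fold change above 0 against susceptible saline, with a median of 0.28, and in responders 16 of 17, with a median of 0.11. None of these was called. The list mean was 5.96 to 6.06 log2 CPM in susceptible saline, 5.94 to 6.07 in controls, 6.03 to 6.20 in resilient libraries, and 5.90 to 6.10 and 6.04 to 6.17 in imipramine responders and non-responders. Responder 3 lay inside the susceptible saline range, and the median of responders against saline was 0.002 without responder 1 and 0.044 without saline replicate 1. The median in responders against non-responders was also below 0 in the other comparisons of this kind. It was -0.10 in imipramine-treated hippocampus, -0.11 in prefrontal cortex, -0.08 in nucleus accumbens and -0.19 in basolateral amygdala. Pools of the other regions may hold tissue of the same ketamine-treated mice, so their medians cannot be taken as independent repeats. The 16 cytosolic heat shock genes, which answer to another stress sensor, had a median of -0.0017 with 8 above 0 in ketamine-treated hippocampus. Their medians were -0.02 under imipramine, -0.06 in prefrontal cortex, -0.02 in nucleus accumbens and -0.19 in basolateral amygdala, the last close to that of the chaperones there.

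**Figure D4:**
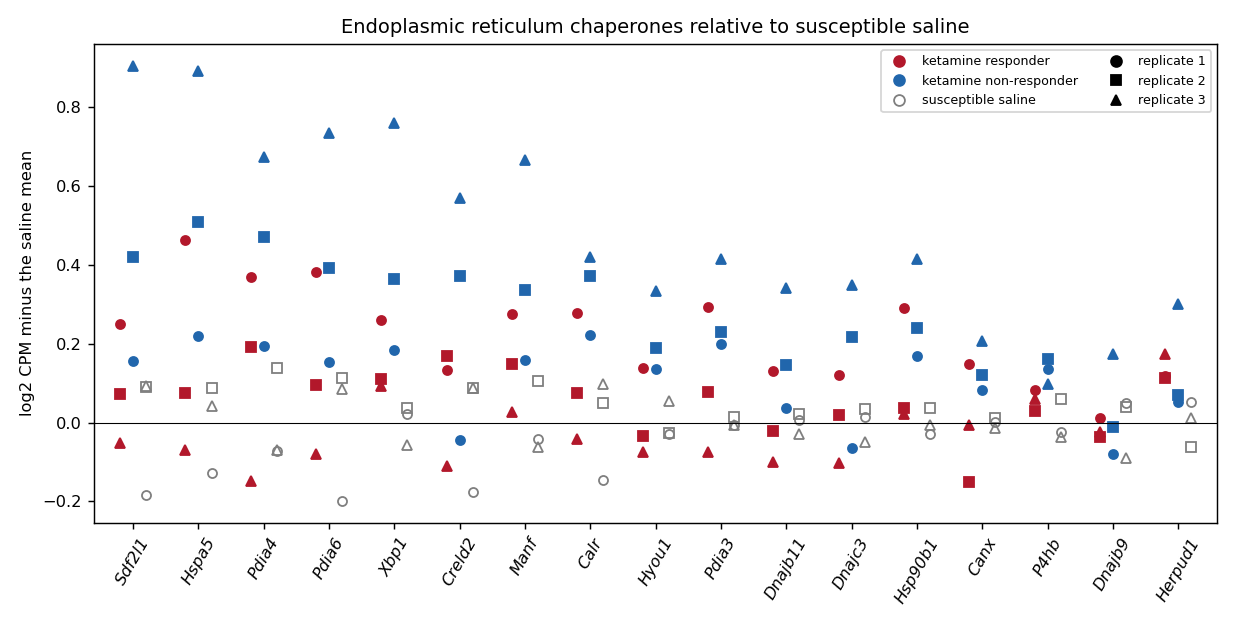
Log2 CPM of each of 17 endoplasmic reticulum chaperone genes (horizontal, ordered by log2 fold change) relative to the mean of the 3 susceptible saline libraries (vertical), in each responder, non-responder and saline library, with marker shapes for replicates. Non-responder 3 is the highest library for 16 of the 17 genes, and responder 1 often lies among the non-responders.

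NMDA receptor subunits, the target of ketamine, did not pass the test in either direction. Grin1, the obligate subunit, measured 381, 433 and 333 CPM in responders and 376, 399 and 369 CPM in non-responders, a log2 fold change of 0.0037 (SE 0.118). Grin2b, which dominates early in development, measured 197, 98.9 and 82.0 CPM in responders and 148, 80.0 and 153 CPM in non-responders. Grin2a, which prevails in the adult, measured 164, 94.8 and 70.3 CPM in responders and 148, 97.8 and 129 CPM in non-responders. The groups overlapped in both genes, with log2 fold changes of -0.01 (SE 0.326) and -0.19 (SE 0.237). Grin2d, a subunit of interneurons and thalamus, measured 20.9, 21.9 and 34.4 CPM in responders and 21.6, 20.2 and 19.2 CPM in non-responders. It was the single subunit with an unadjusted p below 0.05, and its log2 fold change of 0.35 (SE 0.160) was 0.08 without responder 3. Grin2c, Grin3a and Grin3b had log2 fold changes of 0.10, 0.16 and 0.12, which became -0.05, -0.04 and -0.24 without responder 3.

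Of 16 AMPA receptor subunits and auxiliary proteins, 3 were higher and 3 lower at an unadjusted p below 0.05, with a median of 0.01. The counts were 0 and 0 without responder 3, 5 and 5 without responder 1, 5 and 4 without responder 2, 2 and 2 without non-responder 1, and 1 and 0 with only the 6 libraries in the fit. Gria2, the subunit that blocks calcium entry, measured 895, 875 and 695 CPM in responders and 986, 923 and 1000.2 CPM in non-responders, with groups that did not overlap. Its log2 fold change was -0.24 (SE 0.082), or -0.13 without responder 3. Cacng5, an auxiliary subunit, lay at 15.5, 20.8 and 26.2 CPM in responders and 13.9, 14.1 and 12.9 CPM in non-responders, a log2 fold change of 0.61 (SE 0.225), or 0.41 without responder 3. Grm4, a presynaptic metabotropic receptor, measured 13.9, 17.4 and 55.5 CPM in responders and 13.7, 13.7 and 12.2 CPM in non-responders, and its 1.14 became 0.25 without responder 3.

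Of the 18 mTOR and eEF2 translation genes, 8 were above 0, with a median of -0.0055, and 1 was higher at an unadjusted p below 0.05. That gene, Deptor, an inhibitor of mTOR, measured 14.7, 14.0 and 32.0 CPM in responders and 15.0, 16.5 and 12.2 CPM in non-responders. Responder 3 alone was high, and the log2 fold change of 0.48 (SE 0.216) was -0.019 without it. Mtor measured 139, 138 and 125 CPM in responders and 143, 140 and 134 CPM in non-responders, and Eef2k, the eEF2 kinase, 33.8, 38.5 and 34.3 CPM against 37.5, 38.5 and 34.5 CPM. Their log2 fold changes were -0.06 (SE 0.078) and -0.05 (SE 0.074). Rps6kb1, the S6 kinase downstream of mTOR, lay at 50.9, 50.8 and 50.7 CPM in responders and 56.3, 53.1 and 60.1 CPM in non-responders. These groups did not overlap, and the log2 fold change was -0.15 (SE 0.074). Of the 18 genes, 1 had every responder lower and 0 every responder higher, beside 4.88% and 4.84% of all genes. Bdnf measured 68.7, 56.3 and 39.4 CPM in responders and 66.3, 61.0 and 69.1 CPM in non-responders. Responder 3 was lowest, and the log2 fold change of -0.26 (SE 0.159) was -0.06 without it. Ngfr, the p75 neurotrophin receptor, had the highest value of the 9 neurotrophin genes, 0.60 (SE 0.314), or 0.19 without responder 3.

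Of the 23 immediate early genes, whose transcription follows neuronal firing, 10 were above 0 and the median was -0.05. That median was 0.03 without responder 2 and 0.06 without non-responder 3. Fos measured 4.64, 4.94 and 5.48 CPM in responders and 3.98, 3.17 and 4.58 CPM in non-responders. These groups did not overlap, by a narrow margin, and the log2 fold change was 0.37 (SE 0.291). Of the 23 genes, 1 had every responder higher and 1 every responder lower, beside 4.84% and 4.88% of all genes. Arc, at 88.5, 89.6 and 66.8 CPM against 69.2, 85.0 and 74.4 CPM, and Npas4, at 4.44, 5.71 and 7.73 CPM against 7.99, 7.26 and 5.63 CPM, overlapped. Egr3 measured 56.0, 47.1 and 43.0 CPM in responders and 56.1, 56.1 and 57.8 CPM in non-responders, a log2 fold change of -0.22 (SE 0.081), or -0.13 without responder 3. Dusp1, a MAP kinase phosphatase, had a log2 fold change of 0.37 (SE 0.141), or 0.16 without responder 3. The members thus did not share a direction.

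Glucocorticoid-responsive genes had a median of 0.06, with 10 of 19 above 0 and 0 at an unadjusted p below 0.05. Both ketamine groups lay below susceptible saline, with medians of -0.27 in responders and -0.38 in non-responders. Saline replicate 1 was the highest library for 16 of the 19 genes, with a list mean of 4.62 log2 CPM beside 3.99 and 3.92, and without it the medians were -0.16 and -0.21. Fkbp5, the co-chaperone that restrains the glucocorticoid receptor, measured 56.7, 53.6 and 42.3 CPM in responders, 51.3, 51.4 and 58.1 CPM in non-responders and 88.1, 73.8 and 72.8 CPM in saline. Every ketamine library was below every saline library. Against saline Fkbp5 was called in responders, with a log2 fold change of -0.62 and an adjusted p of 0.0212 in edgeR, while in non-responders the values were -0.55 and 0.209. The call in responders was lost without saline replicate 1 (adjusted p 0.157), 2 (0.0921) or 3 (0.109) and without responder 3 (0.270), all in edgeR. Between the ketamine groups the log2 fold change was -0.08 (SE 0.128). Sgk1, a kinase induced by glucocorticoids, measured 62.8, 67.8 and 53.8 CPM in responders, 64.0, 68.8 and 67.7 CPM in non-responders and 124, 63.0 and 74.1 CPM in saline, where replicate 1 was high.

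Among ion channels, Hcn4, a pacemaker channel abundant in thalamus, measured 2.25, 3.51 and 13.5 CPM in responders and 2.37, 1.92 and 1.86 CPM in non-responders, and its log2 fold change went from 1.66 to 0.48 without responder 3. Hcn2 went from 0.27 to 0.04. Of the 9 Kcnq and Hcn channels, 5 were above 0 and 4 below, with a median of 0.08. Kcnh1, a voltage-gated potassium channel, had every responder below every non-responder, at 75.3, 69.1 and 52.3 CPM against 79.1, 79.4 and 77.7 CPM. Its log2 fold change was -0.26 (SE 0.092), or -0.12 without responder 3. Of the 29 voltage-gated potassium channels of other families, 15 were above 0 and 14 below. In 3 of them, and in 4.88% of all genes, every responder lay below every non-responder. Htr7, a serotonin receptor, measured 10.1, 7.29 and 12.4 CPM in responders and 6.86, 6.62 and 5.83 CPM in non-responders. For Htr7 the log2 fold change was 0.63 (SE 0.205), or 0.43 without responder 3. It went against most of its list: of 11 serotonin receptors, 3 were above 0 and 8 below. The median of that list was -0.09, or 0.04 without responder 3.

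Transcripts encoded in mitochondrial DNA showed a median of 0.13, with 10 of 12 above 0 and 3 higher at an unadjusted p below 0.05. The median was 0.05 without non-responder 1 and 0.08 without responder 1, with 0 such members in both, 0.08 with 1 without responder 3, 0.22 with 6 without responder 2 and 0.25 with 7 without non-responder 3. The gene mt-Atp6, a subunit of ATP synthase, measured 705, 600 and 593 CPM in responders and 412, 493 and 495 CPM in non-responders. The groups did not overlap and the log2 fold change was 0.44 (SE 0.168), 0.49 without responder 3. Saline libraries lay with the responders, at 556, 688 and 614 CPM. The gene mt-Co2, a cytochrome oxidase subunit, had a log2 fold change of 0.19 (SE 0.082) and also had separate groups.

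Glial and vascular lists had no called members. All 15 oligodendrocyte markers were above 0, with a median of 0.21 and 0 at an unadjusted p below 0.05, and the median was 0.07 without non-responder 3 and 0.34, with 4 such members, without non-responder 2. Mbp, myelin basic protein, measured 3030, 3384 and 3711 CPM in responders and 2749, 3316 and 2551 CPM in non-responders. Trf, the transferrin made by oligodendrocytes, measured 5.02, 6.56 and 7.08 CPM in responders and 4.74, 4.62 and 3.16 CPM in non-responders, groups that did not overlap. It was the 1 marker of the 15 with every responder higher, beside 4.84% of all genes. Endothelial markers were above 0 in 12 of 13, with a median of 0.17 that became -0.03 without responder 3, 0.03 without non-responder 2 and 0.34 without responder 2, and meningeal and mural cell markers in 15 of 16, with a median of 0.22 that became -0.0026. Astrocyte markers were above 0 in 8 of 13, with a median of 0.09 that became -0.01 without responder 3, and microglial markers in 9 of 17, with a median of 0.00076. The medians of all lists with and without responder 3 are compared in the dot plot.

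**Figure D5:**
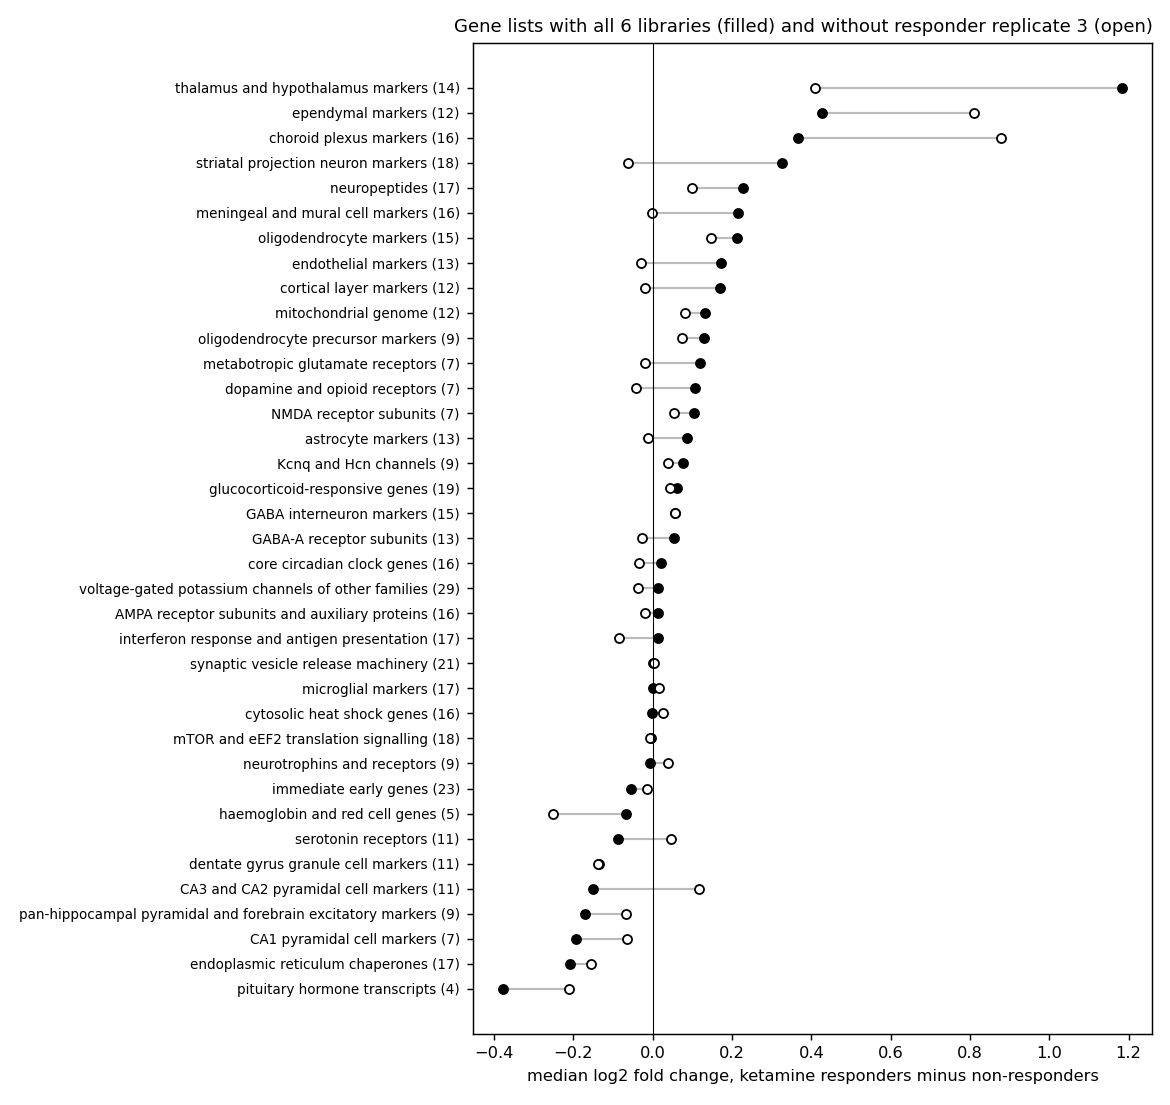
Median log2 fold change in ketamine responders minus non-responders (horizontal axis) of each of 37 gene lists (vertical axis, tested members in parentheses), with all 6 libraries (filled) and without responder 3 (open). The thalamus and hypothalamus list moves from 1.18 to 0.41, and the dentate gyrus list stays at -0.14.

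Whether responders differed from non-responders in another way under ketamine than under imipramine was tested as a difference of differences in the hippocampus. Of 17758 genes, 0 (0%) were called in edgeR, 532 had an unadjusted p below 0.05, and DESeq2 called 0. St8sia2, which adds polysialic acid to the adhesion molecule NCAM, had the smallest p, 0.0016, with a log2 difference of 0.66. It measured 3.94, 4.06 and 4.64 CPM in ketamine responders and 3.34, 3.31 and 3.56 CPM in non-responders. Plch1, Pcbd1 and Rnf180, a ubiquitin ligase, followed with log2 differences of 0.70, 0.81 and 0.35. Without responder 3 the difference was 0.57 for St8sia2, 0.36 for Plch1, 0.57 for Pcbd1 and 0.34 for Rnf180. The thalamus and hypothalamus list had a median of 0.03 under imipramine.

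Across all 4 regions (the hippocampus, the basolateral amygdala, the nucleus accumbens and the prefrontal cortex), 0 of 19024 genes (0%) were called for a difference in responders against non-responders, 452 had an unadjusted p below 0.05 and the smallest adjusted p was 0.232 in edgeR. DESeq2 was not run for this test. The fit treated all libraries as independent. No animal identifiers are given in the sources used here, so the same mice may have supplied tissue for several regions. Without responder 1, 14 genes were called, among them Tcf7l2, Grm4, Slitrk6, Dbndd1 and Krt2. Slitrk6, a neuronal adhesion protein of thalamus, measured 2.89, 4.00 and 12.4 CPM in hippocampal responders and 2.52, 2.60 and 2.07 CPM in non-responders, and its log2 fold change of 1.44 was 0.52 without responder 3. Slc29a4, a monoamine transporter of choroid plexus, was 39.6, 56.2 and 36.4 CPM against 41.8, 55.2 and 39.9 CPM, with the highest values in responder 2 and non-responder 2. In the other regions taken singly, 0 genes were called, with 795, 69 and 503 genes at an unadjusted p below 0.05 in prefrontal cortex, nucleus accumbens and basolateral amygdala. The median of the thalamus and hypothalamus list was 0.09, -0.14 and -0.03 there.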

How the data were processed

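The authors deposited 1 table of raw read counts for 37991 Ensembl genes in 99 libraries, without normalization, and the counts were used as deposited. HTSeq 0.6.0, TopHat2 2.0.9 and Bowtie2 2.1.0 are named with build NCBIM37 in the submitters' processing notes; annotation release and counting settings are not given in the sources used here. Per the labels' protocols, libraries were poly-A-selected with a kit that does not mark strand and read as 50 bp pairs, so overlapping and antisense genes cannot be told apart. Symbols were matched for 32919 IDs (86.6%); promoters come from RefSeq GRCm38.p6.

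The 24 hippocampal libraries were fitted together with edgeR 4.0.16 in R 4.3.3: a mean per group, filterByExpr with a minimum count of 10, TMM scaling, and a robust quasi-likelihood F-test with Benjamini-Hochberg adjustment over the genes tested, called below 0.05. A standard error is the absolute log2 fold change divided by the root of F. CPM were computed from TMM-scaled library sizes, and log2 CPM used a prior count of 2. Differences between drugs and between regions were tested as contrasts. Lists are described by counts and medians, without a test. The alternatives were median-ratio scaling, no filter, DESeq2 1.42.0, the series of sample numbers as a covariate, only the 6 libraries in the fit, and leaving out each library; leaving out libraries in the comparisons with saline was chosen after seeing the data. Named genes were the 8 of smallest p per direction (average log2 CPM of at least 1), up to 3 per list, the NMDA receptor subunits, a fixed set of ketamine, stress and tissue markers, and up to 4 for each difference; a few genes it names are not reported here, genes outside it are marked, and the promoters were chosen by p and motif. Members and lists were chosen with earlier results of these data known. The fit was also run on simulated counts. These held no outlying library such as responder 3, so that run does not show how the fit behaves on these libraries. Each library pools 2 mice, and the labels call the libraries biological replicates, so p-values measure the spread between pools.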

Additional observations from a re-analysis of the deposited data

Results flagged for a closer look

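In the 4 control libraries, 1 library lay far from the others for 2 marker lists. Control replicate 1 had a mean of 3.24 log2 CPM for thalamus and hypothalamus markers, and the other three had 1.42, 1.44 and 1.64. The same library had a mean of 3.81 log2 CPM for striatal projection neuron markers, and the others had 2.81, 2.84 and 2.89. Among 5 lists examined in this way, choroid plexus markers, endoplasmic reticulum chaperones and glucocorticoid-responsive genes had no such library. The rule marks about 1 group in 20 by chance when a list is fixed in advance. These lists were picked from 37 with earlier results known, and both marks fell on the same library, so that rate does not describe them. The part of tissue composition in any difference between groups was not tested.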

How the results depend on the processing

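The count of called genes in responders against non-responders was 0 in every alternative run but 1, and ranged from 0 to 1 when each library was left out, with Pcp4l1 (0.92) called without responder 1. The difference between drugs stayed at 0 in all of its alternatives, and the difference between regions ranged from 0 to 14 when hippocampal ketamine libraries were left out, 14 without responder 1. Against susceptible saline the count ranged from 3 to 550 in responders and from 0 to 5 in non-responders when 1 library was left out. No paired analysis was possible because the replicate numbers were given in order of deposit and the labels link no responder pool to a non-responder pool. Of the 37 list medians, 25 changed sign in 1 or more alternatives and 12 kept their sign. In 14 lists the median moved by over 1 SD of the list mean, pooled over the ketamine groups. Some named genes had a log2 fold change whose sign turned when 1 ketamine library was left out. Their ranges were Ttr from -1.56 to 6.71, Kcnj13 from -1.63 to 6.58, Fkbp5 from -0.16 to 0.044, Zbtb16 from -0.14 to 0.015 and Grin1 from -0.092 to 0.098. Those of others were Grin2a from -0.60 to 0.054, Grin2b from -0.49 to 0.22, Grin2c from -0.050 to 0.23, Grin3a from -0.042 to 0.32 and Grin3b from -0.24 to 0.42. The rest were Slc29a4 from -0.26 to 0.11, Krt2 from -0.055 to 0.15, Herpud1 from -0.049 to 0.074, Agrp from -0.93 to 0.039 and Deptor from -0.019 to 0.70. With the series of sample numbers as a covariate the sign turned for Arc (-0.062), Grin1 (-0.051), Grin2b (0.0091) and Krt2 (-0.039), and with only the 6 libraries fitted for Herpud1 (0.0014). The cause was not tested. With 3 pools a group, the median standard error of a log2 fold change was 0.124, and the p-values cover the spread between these pools only.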

Other observations

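Haemoglobin and red cell transcripts, which report blood left in the tissue, had a median log2 fold change of -0.07 over 5 tested members in responders against non-responders, and a list mean of 2.61 ± 0.191 log2 CPM in responders against 2.55 ± 0.632 in non-responders (SD, n = 3). Non-responder 3 was highest, at 3.27, and without it the median was 0.46. Ependymal markers, genes of the ciliated cells that line the ventricle, had a median of 0.43 with 11 of 12 above 0, which was 0.81 without responder 3, with 9 members higher at an unadjusted p below 0.05, and -0.08 without responder 2. Their list means were 1.39, 1.82 and 0.15 log2 CPM in responders and 0.53, 1.36 and 0.59 in non-responders. Synaptic vesicle release genes had a median of 0.0016 over 21 members, and core clock genes one of 0.02 over 16. Vamp1, a vesicle fusion protein, measured 152, 151 and 242 CPM in responders and 140, 131 and 143 CPM in non-responders, and its log2 fold change of 0.40 (SE 0.121) was 0.14 without responder 3. Oligodendrocyte precursor markers had a median of 0.13, which was 0.07 without responder 3, 0.08 without non-responder 3 and 0.23 without responder 2. Among them Neu4, a sialidase, lay higher in every responder, at 10.8, 11.7 and 12.6 CPM against 10.1, 10.2 and 9.11 CPM.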
